A study of Rattus norvegicus with 8 samples.

Results

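The genes described here are 10 markers of microglia, the resident macrophages of the retina, and of macrophages that enter from the blood: Aif1, Cd68, Itgam, Cx3cr1, Csf1r, Tyrobp, Trem2, Ptprc, P2ry12 and Itgb2. They are a set of widely used markers fixed by gene name, and every probe that carries one of these names and is not a control was taken. All 10 are on the array, out of 26334 gene names in its design, and all 10 passed the filter on dim spots, as did 16307 genes in total. They are measured by 31 spots of 13 probes, of which 27 spots of 12 probes passed.

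RNA was taken from separate retinas of 8-week-old female Lister Hooded rats, 2 weeks after surgery. For 4 retinas the right optic nerve had been crushed with forceps behind the eye (ONC), and for 4 the nerve had been exposed in the same way without closing the forceps (CTR, sham operation). Each retina was labeled with Cy3 or Cy5 and makes up 1 channel of an Agilent array. By the labels, every array pairs a CTR with an ONC retina that bears its number, CTR always in Cy5 and ONC always in Cy3, so dye and surgery cannot be told apart. The methods instead put retinas of the same group together on each array. The names below are those of the labels.

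Microglia are maintained by signals through the receptor CSF1R, hold contact with neurons through the fractalkine receptor CX3CR1 and sense nucleotides of damaged cells through P2RY12. TREM2 and its adaptor TYROBP carry lipid signals into the cell, and the integrin made of ITGAM and ITGB2 binds complement-coated material and endothelial ligands. After injury to the optic nerve, microglia of the retina are known to change shape, to divide and to take up dying ganglion cells.

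Before any comparison, the channels were checked against genes that mark cells of the retina. Rods and cones were present in all channels, since 15 of 15 of their markers, Sag among them, were well above background in all 8 channels. Markers of retinal ganglion cells (RGCs), whose axons the crush injures, did not follow the labels. Over the 10 of 14 listed RGC markers that passed the filter (Pou4f1 is not among the names of the files, and Pou4f3, Isl2 and Nrn1 did not pass), the median log2 level relative to each gene's mean over 8 channels was -1.57, 1.16, -1.14 and -0.97 across the channels labeled CTR1 to CTR4. Across those labeled ONC1 to ONC4 it was 1.24, 1.24, 1.37 and -1.24. The channel labeled CTR2 thus stood with 3 ONC channels, and the channel labeled ONC4 stood with 3 CTR channels. Every direction below is one between labels, and for the members, differences without CTR2 and without ONC4 are given beside the main ones.

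The probes are oligos of 60 bases made from rat transcripts, placed by the array files on build rn4. Some of them are shown here, for genes with probes on more than 1 stretch of the transcript or with a probe across a splice junction. Each is written 5′ to 3′ in the sense of the transcript, in capitals because the whole oligo takes part in hybridization. The Csf1r probes lie on the plus strand at chr18:57093036-57093095 and at chr18:57105231-57105932, with starts 12195 bases apart. The second Csf1r probe and the Itgam probe, at chr1:187385032-187385565 on the plus strand, cover 702 and 534 bases of the genome with 60 bases and so pair with spliced RNA across exons. The Aif1 probe shown is at chr20:3716146-3716205 on the plus strand. The Ptprc probe shown, at chr13:51274302-51274361 on the minus strand, is the only one of the 13 that did not pass the filter. The Ptprc probe that passed and the second Aif1 probe are not shown.
Csf1r, first probe: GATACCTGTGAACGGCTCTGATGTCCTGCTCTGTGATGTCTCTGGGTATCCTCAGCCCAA
Csf1r, second probe: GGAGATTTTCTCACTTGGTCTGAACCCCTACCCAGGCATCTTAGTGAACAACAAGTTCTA
Itgam: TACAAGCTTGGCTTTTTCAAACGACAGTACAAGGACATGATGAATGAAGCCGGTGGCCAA
Aif1, first probe: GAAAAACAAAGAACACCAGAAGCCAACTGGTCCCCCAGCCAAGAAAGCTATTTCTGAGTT
Ptprc, dim probe: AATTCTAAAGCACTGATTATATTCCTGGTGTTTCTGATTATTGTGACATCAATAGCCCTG

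The values below are log2 levels after background subtraction and loess normalization within the array, with the median of each channel set to 0, so a negative level lies under the median spot of its channel. Compared by labels, 9 of the 10 genes had a lower mean in the ONC channels and Cx3cr1 alone had a higher one. For RGC markers, Cd74, Clu and Cyba, a gene of the phagocyte and oxidase list below, the direction by these labels is opposite to the one the study gives. The moderated test of limma, adjusted over all genes, called 0 of the 10 members at an adjusted p under 0.05, where 0.497% of all genes were called (81 of 16307). At an unadjusted p under 0.05, limma had 4 of the 10 (Aif1, Itgb2 and P2ry12 lower, Cx3cr1 higher) against 18.6% of all genes (9.85% lower and 8.7% higher). The methods' t-test was run by label on the same log2 values, without the fold-change cut-off that the study adds to it. It had 1 of the 10 before adjustment, where it had 2690 of all 16307 genes, and 0 of either after adjustment. In bulk retina, a difference in the number of microglia and one in RNA per microglial cell cannot be told apart. Because the RGC markers did not follow the labels, the directions by label are not read as effects of the crush.

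**Figure D1:**
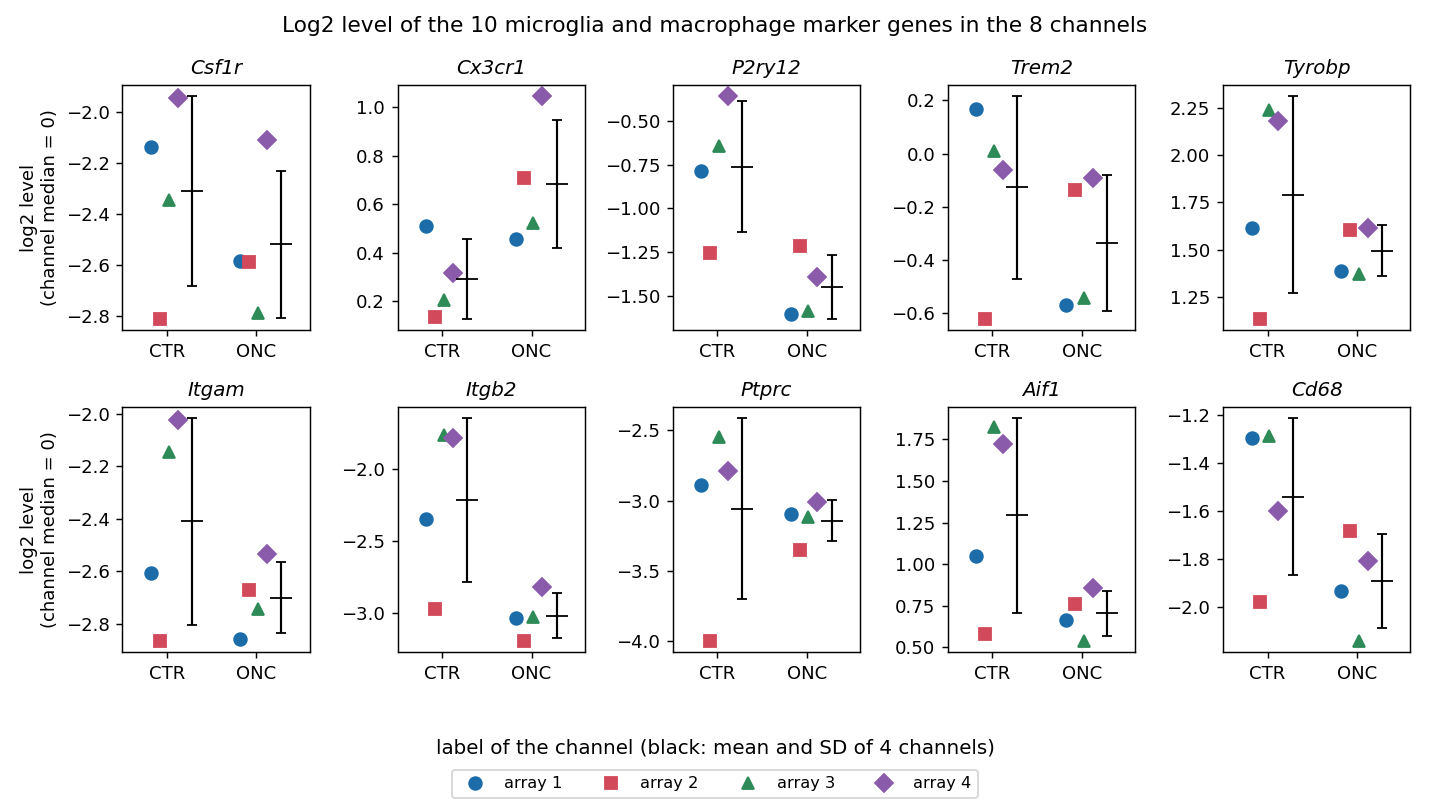
Log2 level of each of the 10 genes (vertical axis, channel median at 0, a scale of its own for each gene) in the 4 CTR and the 4 ONC channels. Points are channels, with color and shape by array, and black bars are the mean and SD of 4 channels. The channel labeled CTR2 (squares on the left) is the lowest CTR channel for all 10 genes.

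Csf1r encodes the receptor for CSF1 and IL-34 on which microglia depend for survival. Its level was -2.14, -2.81, -2.35 and -1.94 in the channels labeled CTR1 to CTR4, against -2.58, -2.59, -2.79 and -2.11 in ONC1 to ONC4. The groups overlapped over most of their range, with ONC4 above 3 of the CTR channels. The difference of ONC minus CTR was -0.21 (standard error 0.20, adjusted p = 0.636 by limma). It was -0.38 without CTR2, -0.35 without ONC4 and -0.09 without CTR4. The first probe shown above gave -0.07 and the second -0.35, and they stood furthest apart in CTR4, at -2.51 by the first and -1.38 by the second.

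Cx3cr1 encodes the receptor for fractalkine, a chemokine that neurons carry on their surface. Its level was 0.51, 0.13, 0.20 and 0.32 in CTR1 to CTR4, against 0.46, 0.71, 0.52 and 1.05 in ONC1 to ONC4. The groups nearly separated, and CTR1 was above ONC1 by 0.06 as the only CTR channel inside the ONC range. The difference was 0.39, a fold of 1.31 (standard error 0.14, unadjusted p = 0.0232, adjusted p = 0.192 by limma), and it was 0.34 without CTR2 and 0.27 without ONC4. On the arrays it was -0.06, 0.57, 0.32 and 0.73.

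P2ry12 encodes the purinergic receptor that directs microglial processes to injured cells, and it is lost when microglia become activated. Its level was -0.78, -1.26, -0.64 and -0.36 in CTR1 to CTR4, against -1.60, -1.21, -1.59 and -1.39 in ONC1 to ONC4. CTR2 and ONC2, which share array 2, were the channels that overlapped, and the other ONC channels lay under every CTR channel. The difference was -0.69, with a 95% interval of -1.10 to -0.27, a fold of 1.61 (unadjusted p = 0.00445, adjusted p = 0.100 by limma). This is the smallest p among the 10 genes. P2ry12 was the member that passed the methods' t-test before adjustment. Without CTR2 the difference was -0.85 and without ONC4 it was -0.71.

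Trem2 encodes a receptor for lipids and for lipoproteins such as APOE, and Tyrobp the adaptor that signals for it. Trem2 stood at 0.17, -0.62, 0.01 and -0.06 in CTR1 to CTR4, and at -0.57, -0.14, -0.54 and -0.09 in ONC1 to ONC4. All ONC channels of Trem2 lay between CTR2, the lowest of all 8, and CTR3. Tyrobp stood at 1.62, 1.13, 2.24 and 2.18 in CTR1 to CTR4, and at 1.39, 1.60, 1.37 and 1.62 in ONC1 to ONC4. The ONC channels of Tyrobp were close together (SD 0.13, n = 4) and lay inside the CTR range (SD 0.52, n = 4). The differences were -0.21 for Trem2 and -0.30 for Tyrobp, with adjusted p of 0.606 and 0.539 by limma and a CTR SD of 0.34 and 0.52. From processed instead of raw signals, Trem2 was at -0.42 and had an unadjusted p under 0.05 by limma. Without CTR2 the differences of Trem2 and Tyrobp were -0.37 and -0.52, and without ONC4 they were -0.29 and -0.34. Tyrobp was at -0.15 without CTR3 and Trem2 at -0.11 without CTR1.

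Itgam and Itgb2 encode the alpha and the beta chain of complement receptor 3. Itgam stood at -2.61, -2.87, -2.14 and -2.02 in CTR1 to CTR4, and at -2.86, -2.67, -2.74 and -2.53 in ONC1 to ONC4. CTR3 and CTR4 were above the rest, while CTR1 and CTR2 were mixed with the ONC channels. Itgb2 stood at -2.35, -2.97, -1.76 and -1.78 in CTR1 to CTR4, and at -3.03, -3.19, -3.02 and -2.81 in ONC1 to ONC4. For Itgb2 the ONC channels lay under 3 of the CTR channels, and CTR2 was within the ONC range. It was the only member with a lower ONC channel on all 4 arrays, at -0.69, -0.22, -1.26 and -1.03, a pattern that 21.2% of all genes share.

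The difference of Itgb2 was -0.80, a fold of 1.74 (standard error 0.25, unadjusted p = 0.0106, adjusted p = 0.142 by limma), and that of Itgam was -0.29 (standard error 0.18, adjusted p = 0.437). With the array as a block in the fit, limma called Itgb2 (adjusted p = 0.0455, where the alternatives gave 0.0455 to 0.551) and none of the other 9 members. That fit called 7.69% of all genes (1254 of 16307), 4.61% of all genes as lower in ONC. Without CTR2 the differences of Itgb2 and Itgam were -1.05 and -0.44, and without ONC4 they were -0.87 and -0.35. Itgb2 was at -0.65 without CTR3 and Itgam at -0.16 without CTR4. Without loess, Itgb2 was at -0.49. The probe of Itgb2 is printed at 10 places on the array, of which 9 passed the filter, and the SD between these spots within a channel was 0.19 to 0.32. The SD between retinas was 0.57 in CTR and 0.15 in ONC.

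Ptprc encodes CD45, the phosphatase on the surface of all white blood cells, which resident microglia carry at a low level. Its level was -2.89, -4.00, -2.55 and -2.79 in CTR1 to CTR4, against -3.10, -3.35, -3.12 and -3.01 in ONC1 to ONC4. CTR2 was far under the other CTR channels and under every ONC channel. The difference was -0.09 (standard error 0.28, adjusted p = 0.906 by limma). Single channels moved it: it was -0.40 without CTR2, -0.13 without ONC4 and 0.08 without CTR3. The probe is printed 10 times and 8 spots passed. The dim Ptprc probe shown above had a foreground of 1.27 to 2.81 times the background and was not well above background in any of the 8 channels.

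Aif1 encodes IBA1, the calcium-binding protein most used to stain microglia, and Cd68 a glycoprotein of their lysosomes. Aif1 stood at 1.05, 0.58, 1.82 and 1.72 in CTR1 to CTR4, and at 0.66, 0.76, 0.54 and 0.86 in ONC1 to ONC4. CTR3 and CTR4 were the highest and CTR2 was within the ONC range. The difference was -0.59 (standard error 0.25, unadjusted p = 0.0457, adjusted p = 0.261 by limma), and the probes of Aif1 gave -0.62 and -0.56. Cd68 stood at -1.30, -1.98, -1.29 and -1.60 in CTR1 to CTR4, and at -1.93, -1.69, -2.14 and -1.81 in ONC1 to ONC4. CTR2 was again among the ONC channels, and ONC2 was the highest ONC channel. The difference of Cd68 was -0.35 (standard error 0.17, adjusted p = 0.310 by limma). Without CTR2, Aif1 was at -0.82 and Cd68 at -0.50, and without ONC4 they were at -0.64 and -0.38.

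**Figure D2:**
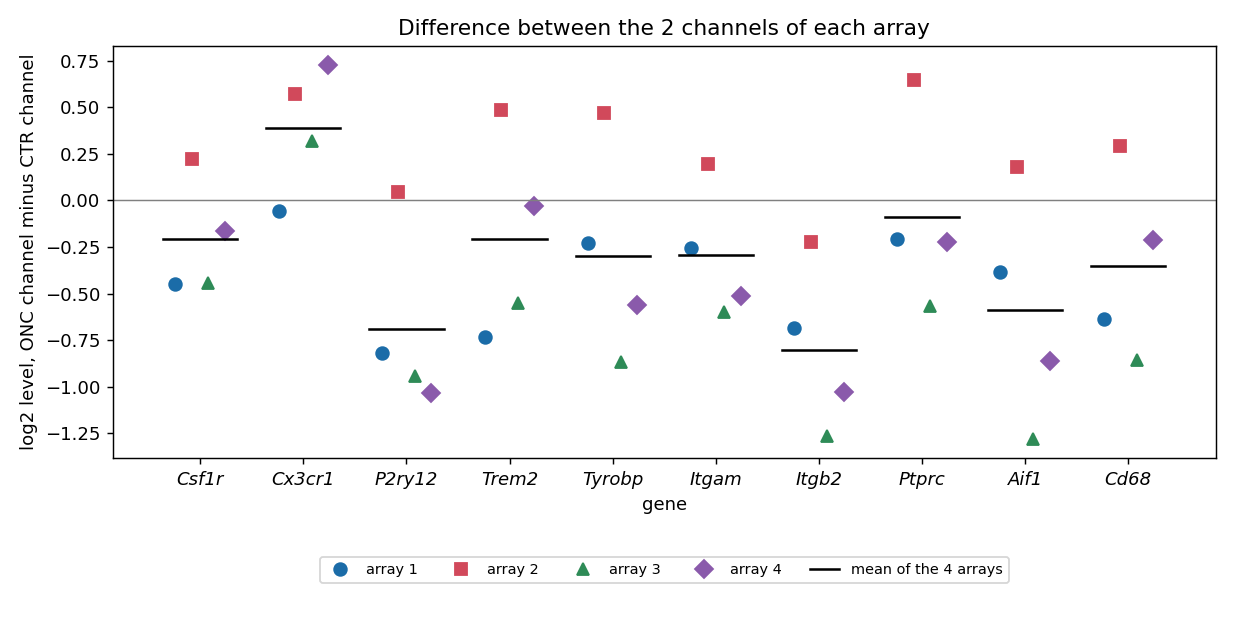
Log2 level of the ONC channel minus that of the CTR channel on each array (vertical axis) for the 10 genes (horizontal axis), with color and shape by array and a black line at the mean of 4 arrays. On array 2 the squares of 9 genes lie above 0, and on array 1 all 10 circles lie below it.

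Array 2 differed from the others. There, 9 of the 10 genes were higher in ONC2 than in CTR2, with Itgb2 as the exception, and the median difference of the members was 0.26. On array 1 all 10 were lower in ONC1, with a median of -0.41. On arrays 3 and 4, 9 of 10 were lower in the ONC channel, with Cx3cr1 as the exception and medians of -0.73 and -0.37. The order of lower on arrays 1, 3 and 4 and higher on array 2 was met by 8 of the 10 members and by 5.67% of all genes. The same is seen from the side of CTR2, which was the lowest CTR channel for 10 of 10 members, as it was for 41.6% of all genes, and the lowest of all 8 channels for 6 of 10, as for 19.3% of all genes. The groups overlapped for all 10 members, while 12.7% of all genes had groups that did not overlap. The median of the RGC markers was high in both channels of array 2 (1.16 in CTR2, 1.24 in ONC2). It was low in both channels of array 4 (-0.97 in CTR4, -1.24 in ONC4). Only arrays 1 and 3 pair a channel low in RGC markers with a high one. Whether the array differences of the members go with the RGC markers was not tested.

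**Figure D3:**
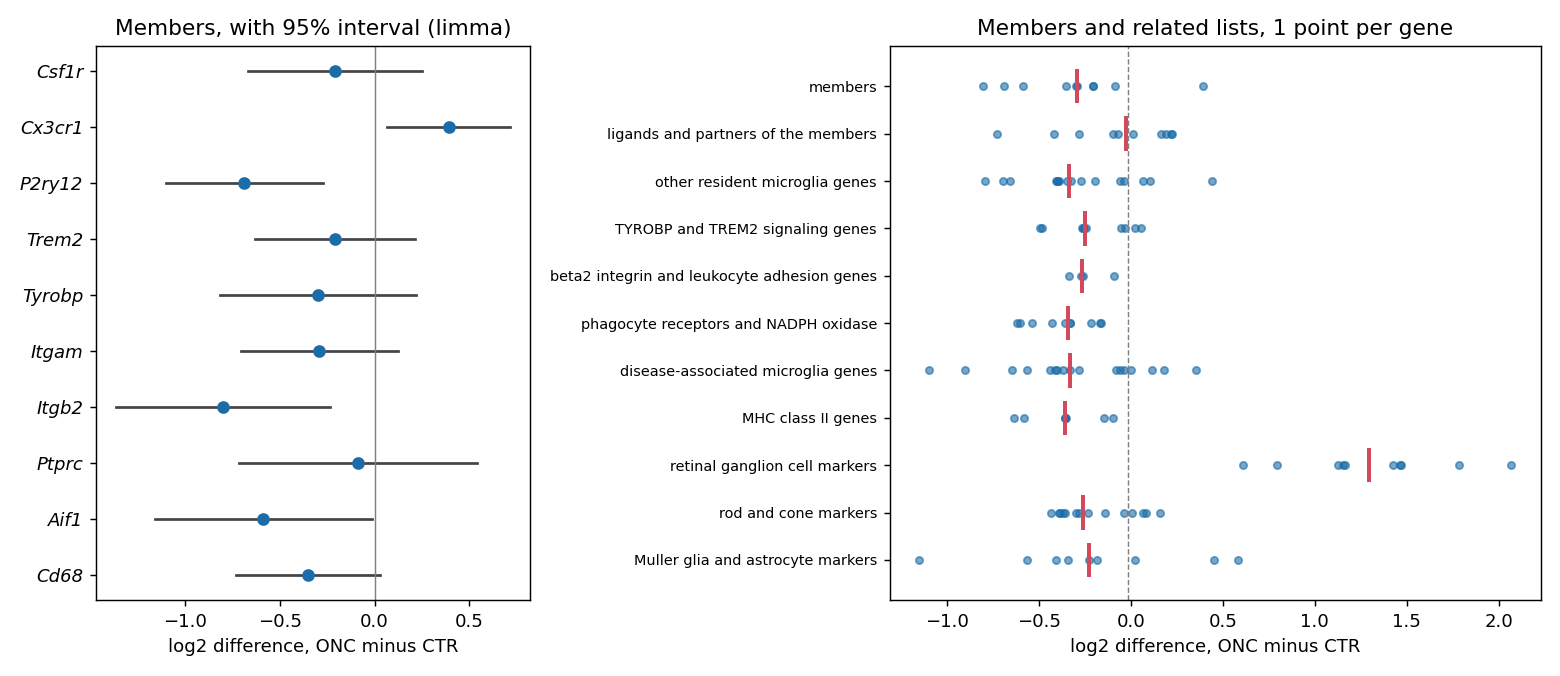
Log2 difference of ONC minus CTR (horizontal axes). Left, each of the 10 members with its 95% interval from limma. Right, a point for each gene of the members and of 10 related lists, with a red line at the median of each list and a dashed line at the median of all genes, -0.01. The RGC markers lie from 0.61 upward and most microglial genes lie below 0.

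The median difference of the members was -0.29, against -0.01 over all genes. It was -0.47 without CTR2, -0.35 without ONC4, -0.21 without CTR3, -0.18 without CTR4 and -0.29 over CTR2, CTR4, ONC1 and ONC3, the 4 retinas with the same dye in both sources. Each channel scaled to its median alone, without loess, gave a median of -0.21, with Csf1r at 0.05, Itgam at 0.01 and Ptprc at 0.38, so the direction of these 3 members depends on the dye normalization. In that setting limma called P2ry12 (adjusted p = 0.0416, where the alternatives gave 0.0416 to 0.433) together with 3194 of all genes.

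The members also varied together. Over the 8 channels, the mean profile of the members, each centered on its own mean, was 0.19, -0.40, 0.42 and 0.43 over CTR1 to CTR4, then -0.26, -0.12, -0.29 and 0.04 over ONC1 to ONC4. Pearson's r between a member and the mean of the other 9, over these 8 channels that share arrays in pairs, was 0.94 for Tyrobp, 0.93 for Aif1, 0.92 for Itgam and 0.77 to 0.88 for Itgb2, P2ry12, Trem2, Csf1r, Cd68 and Ptprc. It was -0.17 for Cx3cr1. All 36 pairs among the 9 genes other than Cx3cr1 had an r above 0, from 0.50 upward with a median of 0.73, while the pairs that include Cx3cr1 ran from -0.42 to 0.25. These coefficients describe the 8 channels and include the difference between labels.

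The genes most like the mean profile of the members, by Pearson's r over the 8 channels, were Cd53 (0.983), Sdr16c5 (0.979), Laptm5 (0.979), C1qc (0.977), Ctss (0.974), B2m (0.972), Itgb5 (0.971), RT1-A2 (0.966), Cmtm7 (0.963) and Tnfrsf12a (0.962). Over all 16307 genes the median r was 0.20, and 146 genes had an r above 0.9. Cd53 is a tetraspanin of white blood cells, Laptm5 a lysosomal membrane protein of blood-derived cells, C1qc a chain of complement C1q and Ctss the lysosomal protease cathepsin S. B2m and RT1-A2 encode the light chain and a heavy chain of MHC class I. Cd53 stood at -0.82, -1.33, -0.46 and -0.39 in CTR1 to CTR4 and at -1.34, -1.06, -1.28 and -0.83 in ONC1 to ONC4, high in CTR3 and CTR4 and low in CTR2 as the members were. Its difference was -0.38 and those of the other 9 genes ran from -0.70 (Tnfrsf12a) to -0.15 (Itgb5), with the smallest adjusted p, 0.218 by limma, for RT1-A2.

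**Figure D4:**
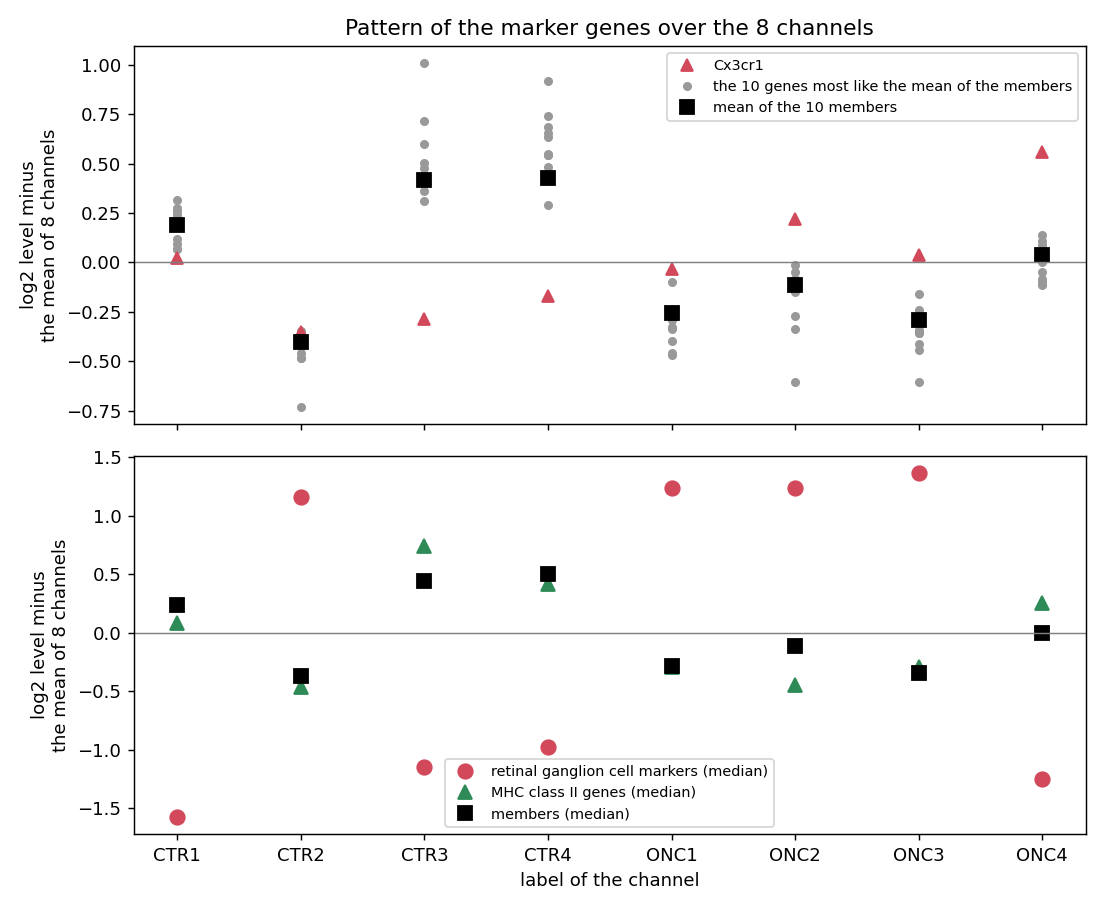
Log2 level minus the gene's mean over 8 channels (vertical axes) by channel label (horizontal axis). Above, the mean of the 10 members (squares), Cx3cr1 (triangles) and the 10 genes most like that mean (gray points). Below, the medians of the members, of the RGC markers and of the MHC class II genes. The mean of the members is highest in CTR3 and CTR4, at 0.42 and 0.43, and lowest in CTR2, at -0.40, where the RGC markers are at 1.16.

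Members that move together were also compared by the sequence in front of their genes. RefSeq promoter windows of 300 bases (250 before to 50 after the start, build GRCr8) were found for 6 of the 10: Itgam, Cx3cr1, Trem2, Cd68, Ptprc and Csf1r. The entries of Aif1, Tyrobp, P2ry12 and Itgb2 are missing. The purine-rich motif that the myeloid factor PU.1 is known to bind was searched on both strands, in spellings chosen after the windows had been seen. The core AGGAAG, which the other spellings contain, was in 6 of 6 windows and in 34.5% of all 33469 windows. GAGGAAG was in 4 of 6 (Cd68, Csf1r, Itgam and Trem2) and in 12.4% of all, and AGGAAGT was in 2 of 6 (Cx3cr1 and Ptprc) and in 8.41% of all. A match is a description of the letters only. The windows of Itgam (chr1:192089342-192089641, plus strand) and Cd68 (chr10:54882392-54882691, minus strand), with GAGGAAG or its reverse complement CTTCCTC in capitals, are shown beside that of Cx3cr1 (chr8:128677017-128677316, minus strand), the member that ran against the others, with AGGAAGT in capitals, found there as its reverse complement ACTTCCT.
Itgam: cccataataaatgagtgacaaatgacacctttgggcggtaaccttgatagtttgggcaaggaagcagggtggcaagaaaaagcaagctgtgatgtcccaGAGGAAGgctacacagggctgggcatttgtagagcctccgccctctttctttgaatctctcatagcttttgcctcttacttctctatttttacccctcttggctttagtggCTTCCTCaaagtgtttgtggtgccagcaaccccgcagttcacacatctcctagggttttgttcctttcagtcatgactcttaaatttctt
Cd68: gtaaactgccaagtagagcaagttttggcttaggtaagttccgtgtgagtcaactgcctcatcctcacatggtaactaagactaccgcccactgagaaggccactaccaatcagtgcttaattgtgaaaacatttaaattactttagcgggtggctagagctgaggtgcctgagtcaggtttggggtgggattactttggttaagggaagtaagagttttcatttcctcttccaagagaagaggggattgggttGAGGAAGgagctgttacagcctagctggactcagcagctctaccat
Cx3cr1: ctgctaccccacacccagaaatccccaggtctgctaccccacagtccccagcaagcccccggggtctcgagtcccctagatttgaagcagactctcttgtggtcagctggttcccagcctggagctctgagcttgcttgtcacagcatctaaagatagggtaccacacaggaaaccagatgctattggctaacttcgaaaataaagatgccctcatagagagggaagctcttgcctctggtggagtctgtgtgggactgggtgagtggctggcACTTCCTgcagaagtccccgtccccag

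Variability among the retinas of a label was described with REV. It is a coefficient of variation over these retinas, pooled over the spots of a gene and widened by a chi-squared interval. The median REV of the members was 46.0% for CTR and 24.1% for ONC, against 25.1% and 21.7% over all genes. It was higher in CTR for 9 of the 10 members, as it was for 58.5% of all genes. Tyrobp had the highest REV in CTR, 71.6% against 19.9% in ONC, and Aif1 had 52.5% against 14.6%. Cx3cr1 was the exception, with 25.2% in CTR and 41.2% in ONC. With a retina left out in turn, the median in CTR ranged from 38.9%, without CTR2, to 72.8%. The chi-squared widening grows when a CTR retina is left out, so these values are not on the scale of the 46.0%.

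The ligands and partners of these receptors did not share a direction: 5 of the 10 that passed the filter were higher and 5 lower in ONC, with a median of -0.03 (-0.12 to 0.04 with a retina left out in turn), and limma called 0. Csf1, a ligand of CSF1R, stood at -1.41, -1.42, -0.67 and -0.73 in CTR1 to CTR4 and at -1.47, -1.51, -1.43 and -1.51 in ONC1 to ONC4. All ONC channels were under all CTR channels, with CTR3 and CTR4 far above the rest, as for 6.92% of all genes that separated in this direction. Its difference was -0.42 (unadjusted p = 0.0473, adjusted p = 0.264 by limma). The neuronal ligand Il34, which binds the same receptor, had a difference of 0.17, and Cx3cl1, the fractalkine that binds CX3CR1, had 0.22, with adjusted p of 0.410 and 0.381 by limma.

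Among the signals that neurons give to restrain phagocytes, Cd47 had a difference of 0.19 (unadjusted p = 0.0357, adjusted p = 0.236 by limma) with the ONC channel higher on all 4 arrays, as in 18.2% of all genes. Cd200 was at 0.22, Sirpa, the receptor of CD47, at -0.07, and the integrin ligands Icam1 and Icam2 at -0.28 and 0.01. Icam1 was higher in ONC on arrays 1 and 2 (0.11 and 0.17) and lower on arrays 3 and 4 (-0.69 and -0.71). Of the lipoproteins that bind TREM2, Apoe was at -0.10 and Clu at -0.73 (unadjusted p = 0.0126, adjusted p = 0.150 by limma). Clu was lower in ONC on all 4 arrays, and limma called it with the array as a block. Cd200r1 and Hcst, the adaptor DAP10, did not pass the filter.

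Further genes of microglia and phagocytes, listed in 5 groups of 99 names without the members, gave 57 that passed the filter, of which 48 were lower and 9 higher in ONC. Over all genes, 52.6% had a lower mean in ONC. Their median difference was -0.28, limma called 0 of them, and 14 had an unadjusted p under 0.05, all of them lower, where 9.85% of all genes were. As for the members, CTR2 was the lowest CTR channel for 42 of the 57, where it was for 41.6% of all genes. Of the 57, 20 were lower on arrays 1, 3 and 4 and higher on array 2, where 5.67% of all genes were. All ONC channels were under all CTR channels for 5 of the 57, as for 6.92% of all genes. With the array as a block, limma called 4 of the 57, where it called 7.69% of all genes: Cd63, Gpnmb, Ncf1 and Tgfbr1.

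Of the other resident microglia genes, 16 of 25 passed and 13 of these were lower, with a median of -0.34 (-0.40 to -0.25 with a retina left out in turn). With normexp background correction and dim spots kept, which adds genes, the median was -0.12. In the main setting, the lowest among genes of this list with an unadjusted p under 0.05 were Fcrl2 at -0.79 and C1qc at -0.66. The highest were Olfml3 at -0.35 and Cst3, which other retinal cells make too, at -0.33. Olfml3, a secreted protein of resident microglia, was at 1.76, 1.73, 1.98 and 2.11 in CTR1 to CTR4 and at 1.47, 1.57, 1.48 and 1.67 in ONC1 to ONC4. These groups did not overlap, and CTR2 was not apart from CTR1 here (adjusted p = 0.138 by limma).

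Of the genes that signal below TYROBP and TREM2, 10 of 18 passed and 8 were lower, with a median of -0.25 that was -0.11 without CTR3 and 0.0033 without loess. Ptpn6, the phosphatase SHP-1 of blood-derived cells, was at -0.50 (adjusted p = 0.178 by limma). Of the genes of beta2 integrin and leukocyte adhesion, 4 of 14 passed, all 4 lower with a median of -0.27 (-0.42 without CTR2, -0.15 without CTR3), and Rac2, a small GTPase of these cells, was at -0.34.

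All 10 of the phagocyte receptors and NADPH oxidase genes that passed (of 24) were lower, with a median of -0.34 (-0.48 to -0.27 with a retina left out in turn). Ncf1, the p47 subunit that assembles the oxidase, stood at 0.42, 0.12, 0.40 and 0.54 in CTR1 to CTR4 and at -0.21, -0.04, -0.17 and -0.26 in ONC1 to ONC4. The groups did not overlap, and the ONC channel was the lower one on all 4 arrays. The difference of Ncf1 was -0.54 (standard error 0.11, adjusted p = 0.0575 by limma). The Fc receptor Fcgr3a was at -0.62 and the endotoxin co-receptor Cd14 at -0.43, with adjusted p of 0.202 and 0.224 by limma.

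Of 20 genes that mark microglia in disease, 17 passed and 13 were lower, with a median of -0.33 (-0.51 without CTR2, -0.16 without CTR4). Spp1, which encodes osteopontin, stood at 0.19, 0.69, 0.36 and 1.82 in CTR1 to CTR4 and at -0.07, -0.11, -0.14 and -0.23 in ONC1 to ONC4. CTR4 was far above the other CTR channels, and no channel of either group overlapped the other. Its difference was -0.90 (adjusted p = 0.168 by limma), and those of Gpnmb, Cd63 and Cd9 were -0.57, -0.40 and -0.28, each lower in ONC on all 4 arrays. Spp1 is also made by RGCs and Cd9, Cd63 and Gpnmb by other cells of the eye.

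Other cells could contribute to some of these genes, and their part in the differences was not tested. All 7 MHC class II genes that passed (of 8, without RT1-Ba) were lower in ONC, with a median of -0.36. This median ran from -0.68 without CTR2 to -0.08 without CTR3, and it was -0.07 without loess and -0.0048 over the 4 retinas with the same dye in both sources. RT1-DMa had the smallest adjusted p of this list, 0.100 by limma, at a difference of -0.64. The median level of the list relative to each gene's mean was 0.08, -0.46, 0.74 and 0.42 over CTR1 to CTR4, then -0.29, -0.45, -0.29 and 0.25 over ONC1 to ONC4. The log2 level of Cd74, the invariant chain, was 0.93, -2.54, 1.66 and 0.63 in CTR1 to CTR4, against -1.03, -0.66, -0.83 and 0.87 in ONC1 to ONC4. It was lowest in CTR2, where all 10 members had their lowest CTR value, and in ONC it was highest in ONC4, where 8 of 10 members had their highest ONC value.

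Most markers of lymphocytes and neutrophils were too dim to pass, while 3 of red cells were measured. Among 11 T and B lymphocyte markers, Cd3d passed the filter, and Cd3e, Cd3g, Cd2, Cd4, Cd8a, Lck, Cd79b and Ms4a1 did not. Of 10 that are in the files, 5 were not well above background in any channel. The level of Cd3d was -1.53, -1.97, -1.84 and -1.73 in CTR1 to CTR4, against -1.73, -1.98, -1.90 and -1.80 in ONC1 to ONC4, lowest on array 2 in both groups, with a difference of -0.09. Of 12 neutrophil and blood cell markers, 3 passed: Hba1, Hbb and Alas2, which belong to red cells. Their median level relative to each gene's mean over 8 channels was -0.07, -0.63, 0.03 and 0.30 in CTR1 to CTR4, against 0.47, -0.25, 0.43 and -0.18 in ONC1 to ONC4, and Hba1 had a difference of 0.38. The neutrophil genes S100a8, S100a9, Mpo, Elane, Camp, Ngp and Csf3r did not pass, nor did the red cell gene Slc4a1. Hba2 is not among the names of the files.

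The other cell types of the retina are given beside the members because they share the RNA. All 10 RGC markers that passed were higher in ONC by label, with a median of 1.29, which was 1.83 without CTR2 and 1.88 without ONC4, and Tubb3 was at 1.16 (adjusted p = 0.0575 by limma). Rod and cone markers had a median of -0.26 (-0.40 without loess, -0.11 over the 4 retinas with the same dye in both sources), and among those with an unadjusted p under 0.05 were Pde6h and Sag at -0.39 and Opn1mw at -0.37. Müller glia and astrocyte markers, 3 higher and 6 lower, had a median of -0.23, with Slc1a3 at -0.56, Vim at -0.41 and S100b at -0.34. Of further genes of this list, named after their values were seen, Gfap was at -1.15 (lower in ONC on 3 of 4 arrays), and Glul at 0.58 and Car14 at 0.45 were higher on all 4. Single channels stood far from the rest of their group. Gfap was at -3.26 in ONC2, against -1.69 to -1.57 in the other ONC channels. Its CTR channels were also split, at -1.84 and -1.71 in CTR1 and CTR2 and at -0.20 and 0.17 in CTR3 and CTR4. In CTR4, Glul was at 2.97 and Car14 at 2.03, against 3.97 to 4.25 and 2.68 to 3.15 in the other CTR channels. The medians of the bipolar and amacrine list and of the endothelial and pericyte list were 0.08 and 0.02, which ran from 0.05 to 0.15 and from -0.08 to 0.09 with a retina left out in turn. Without loess the former was 0.18, and over the 4 retinas of like dye it was 0.24. In the bipolar and amacrine list, Prkca was at 0.36, Gad2 at 0.31, Trpm1 at 0.23 and Slc6a9 at -0.41, and in the endothelial list the gene with the largest difference was Rgs5 at -0.19. In the pigment epithelium and lens list, Cryaa was at -0.95 and Rpe65 at 0.79, and the median was -0.35 but 0.0096 without CTR2. No difference between these medians and that of the members was tested. With the array as a block, the genes that limma called in these lists included Pde6h, Opn1mw, Crx, Slc1a3, Vim, Slc6a9, RT1-DMa and Ciita.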

How the data were processed

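The authors deposited intensity values for each spot and channel, of which the uncorrected foreground means and local background medians were used. The submitters' processing notes name Agilent Feature Extraction 11.1.19.1. Controls, spots with an outlier or saturation mark, and spots less than 2 times as bright as their background in 1 or more channels were left out. The background was subtracted, arrays were normalized by loess, channels were centered on their medians, and spots, then probes, were averaged on the log2 scale. limma 3.58.1 in R 4.3.3 tested ONC minus CTR unpaired (Benjamini-Hochberg over 16307 genes), after a run on simulated data. Deviations from the group means correlated within arrays 1 to 4 at 0.15, 0.55, 0.40 and 0.49, all above the limit set for pairing, although CTR1 correlated best with ONC2 of another array. The unpaired fit was kept as the main one because the methods use an unpaired test. With the array as a block, the adjusted p of the members by limma ran from 0.0455 (Itgb2) to 0.786 (Ptprc). Other blocked values are given where they change a call. Members and lists were chosen with earlier results of these data known. Genes named are the members, the ligands and partners that passed, the 2 highest and 2 lowest differences per related list among genes with an unadjusted p under 0.05 (or, without such genes, the largest difference), Cd74 and the 10 genes with the highest r with the mean member profile. Genes called with the array as a block and genes that did not pass are named beside their counts, after their values were seen. Cyba is named because the study reports it, also after its value was seen. Some genes that this rule names are not reported here. Figures were drawn with matplotlib 3.10.9 (Python 3.11.15), from tables read with pandas 2.3.3 and numpy 2.4.6.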

Additional observations from a re-analysis of the deposited data

Results flagged for a closer look

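Among 60 genes in the 4 CTR and the 4 ONC channels (120 groups of 4), 2 groups held a channel that stood apart by Dixon's test. Chance alone gives about 1 group in 20. Of the 20 groups of the 10 members 0 were among them. Cd47 was at 0.91 in the channel labeled CTR1, against 0.77 to 0.79 in the other CTR channels. Prkca was at -1.08 in the channel labeled ONC2, against -0.68 to -0.66 in the other ONC channels.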

How the results depend on the processing

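Against 81 genes called, the fit with the array as a replicate block called 1254, scaling without loess 3194 (29.0% of them lower in ONC, against 53.1%), processed signals 21 (42.9% lower), normexp 14 (28.6% lower), normexp without the filter on dim spots 0 (with 1957 at an unadjusted p under 0.05), the well-above-background filter 123, Aquantile 412, the brightest probe 124 and the 4 channels of like dye 0 (1961 unadjusted). The methods' t-test, without the study's fold-change cut-off, had 2690 unadjusted and 0 adjusted. With a retina left out in turn, limma called 0 to 38 genes (2085 to 3252 unadjusted), 38 without ONC2 and 0 without each other one, and 0 members. Members called were 1 without loess (P2ry12), 1 with the block (Itgb2) and 1 by the unadjusted t-test (P2ry12), and the block changed no other call among the members. Related genes called, 0 in the main setting, were 19 without loess, 14 with the block and 4 with Aquantile. The median difference of the members ranged from -0.47 to -0.18 with a retina left out. The median REV of the members ranged from 38.9% to 72.8% in CTR and from 24.1% to 36.0% in ONC. The chi-squared widening grows when a retina of the same label is left out, so such values are not on the scale of the main ones. Directions turned for Itgam (0.0069), Csf1r (0.053) and Ptprc (0.38) without loess, and for Ptprc also without CTR3 (0.083), without CTR4 (0.0021) and in the 4 channels of like dye (0.29). The median of the TYROBP and TREM2 signaling genes turned without loess (0.0033) and that of the pigment epithelium and lens list without CTR2 (0.0096), and the medians near 0 of the ligand and endothelial lists changed sign between settings. With normexp and dim spots kept, which adds genes to the lists, medians were -0.12 for the other resident microglia genes, -0.06 for the phagocyte receptors and oxidase, -0.01 for the TYROBP and TREM2 signaling genes and -0.006 for the integrin and adhesion genes. The order of P2ry12 and Itgb2 by size also depended on the setting. The cause was not tested. Ptprc was at -0.40 without CTR2. Over the alternatives, 172 comparisons of single members kept direction and call, 6 turned and 2 gained a call. The 172 include those of the 10 members with saturated spots kept, which could not differ. Keeping saturated spots, an alternative chosen after seeing the data, gave 81 again, since no spot was saturated. The dimmest member, Ptprc, had a foreground of 2.77 times the background in CTR2, which limits its precision.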

Other observations

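Fcgr2a, an Fc receptor of phagocytes, was chosen here after its values were seen. Its log2 level was 0.39 in CTR4 and 0.79 in ONC4, which share array 4, and 2.23 to 2.35 in the other CTR channels and 1.86 to 1.99 in the other ONC channels. Its difference between labels was -0.17 (adjusted p = 0.889 by limma). Sall1, a transcription factor of resident microglia and also named after its value was seen, was at -2.13 in ONC2 and between -4.18 and -3.54 in the other 7 channels.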
